A study of Mus musculus with 8 samples.

Results

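The proteasome subunit genes are here the 48 rows of the deposited table whose symbol is Psma, Psmb, Psmc, Psmd, Psme, Psmf or Psmg followed by a digit, out of 12339 genes. All 48 had a value in every library. Of them 47 encode subunits, activators, an inhibitor or assembly factors of the proteasome. The remaining row, Psmc3ip, encodes a partner of the meiotic recombinases and was taken by its symbol alone, so it was kept apart. Psma8 and Psmb11, the subunits known from testis and thymus, had no row in the table.

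The proteasome is the protease that degrades proteins marked with ubiquitin in the cytosol and nucleus. Its core is a barrel of stacked rings, in which alpha subunits form the gated ends and beta subunits hold the cutting sites. A cap of ATPases and other subunits binds the ubiquitin chain, unfolds the protein and feeds it into the core, and other activators can take the place of the cap. After interferon, cells make immunosubunits that replace the cutting subunits of newly built cores. Subunit genes are known to be switched on together, mainly by the transcription factor NRF1 (Nfe2l1) when the proteasome is short. The related factor Nrf2 (Nfe2l2) has been tied to subunit transcription in oxidative stress.

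Messenger RNA pulled down on tagged ribosomes (RiboTag) was sequenced from mouse retina at postnatal day 14 of oxygen-induced retinopathy, a model in which oxygen-reared pups return to room air. The 4 WT libraries and the 4 libraries with a Müller cell-specific Nrf2 conditional knockout (cKO), all from oxygen-induced retinopathy, are called WT 1, 3, 4 and 5 and cKO 1, 3, 4 and 5 after the labels. No normoxic group was among the samples used here. The Cre driver, the deleted exon, the sex, the age at deletion and the number of animals per sample are not given, so a p-value here reflects only how far these samples spread, which may be technical. Values are FPKM, which are scaled to transcript length and can be compared between genes. Differences are cKO minus WT of log2(FPKM + 0.5), tested with limma over all 12339 genes with a threshold of 0.05 after adjustment, and a value in parentheses beside an adjusted p is this log2 difference. Libraries of equal number deviated together, so each test is also given with the number as a block, and a WT and a cKO library of equal number are called a pair.

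The motif by which Nrf2 is known to bind is the antioxidant response element, whose core was searched as TGACNNNGC on both strands in 250 bases before to 50 after the RefSeq start of each gene (GRCm38.p6). Of the 48 members, 41 had such a window, 44 windows in all. The letters were found in 6 of the 44 (13.6%), against 12.4% of all 32851 windows and 14.1% of the 12137 windows of measured genes. The share in the members was thus near that of the background. The 6 are shown because they belong to the genes in which a direct link to the deleted factor would first be looked for. Capitals mark the match, and each line runs 5′ to 3′ on the strand of the gene.
Psme4: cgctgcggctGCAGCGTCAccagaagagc
Psmb5: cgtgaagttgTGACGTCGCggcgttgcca
Psmb6: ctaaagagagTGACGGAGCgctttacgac
Psmd9: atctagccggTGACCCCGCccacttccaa
Psmc6: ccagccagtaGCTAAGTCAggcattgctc
Psmd12: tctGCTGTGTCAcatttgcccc

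The stretch of Psme4 is chr11:30771758-30771786 on the plus strand, with the match on the opposite strand, beginning 7 bases before the RefSeq start and inside the longer GENCODE gene model. Those of Psmb5 (chr14:54618024-54618052, minus strand), Psmb6 (chr11:70525338-70525366, plus strand) and Psmd9 (chr5:123228149-123228177, plus strand) begin their match 47, 9 and 31 bases before the start. The stretch of Psmd9 also lies inside its GENCODE gene model (chr5:123169413-123250131). The matches of Psmc6 (chr14:45329587-45329615) and Psmd12 (chr11:107479278-107479299), both on the plus strand of the genome, lie on the opposite strand of the gene, 227 and 247 bases before the start. A match is a description of letters. Of these 6 genes, only Psme4 passed the test in the comparison below, in the fit with the block.

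Psme4 was the only one of the 48 members (2.08%) past the threshold in the fit with the block, against 10.6% of all genes. Without the block it did not pass. The 201 bases that precede both of its annotated starts (chr11:30771525-30771725, plus strand, GRCm38.p6) are given below. They are 62.2% G or C, hold 14 CpG dinucleotides and hold none of the motifs searched.
Psme4 upstream: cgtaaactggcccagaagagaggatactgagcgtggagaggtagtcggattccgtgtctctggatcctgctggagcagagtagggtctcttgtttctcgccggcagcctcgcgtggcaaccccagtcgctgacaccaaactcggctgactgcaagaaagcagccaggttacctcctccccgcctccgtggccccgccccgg

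Nfe2l2, the targeted gene, was at 17.5, 18.8, 23.1 and 17.5 FPKM in WT 1, 3, 4 and 5 and 12.7, 16.5, 14.8 and 10.4 in cKO 1, 3, 4 and 5. No cKO library reached the lowest WT library (log2 difference -0.50). An exact permutation test over the 70 ways to assign the labels, two-sided, gave p = 0.0286, which is its lowest possible value. In limma the adjusted p was 0.453, and 0.0219 with the block, and the value covers the whole gene. With the block it did not pass without pair 1 (adjusted p = 0.0785), pair 4 (0.0846) or pair 5 (0.0634). The Müller glia markers in the fixed list were all measured, with a sum of 8498 to 14397 FPKM in WT and 8490.04 to 12509 in cKO. Rod markers summed to 2476 to 3975 and 2682 to 3977 FPKM, and bipolar cell markers to 1762 to 2240.2 and 2237 to 2725, so markers of other retinal cells were present in every library. Of the microglia list 1 of 12 markers was in the table, of the endothelial list 3 of 7, of the pericyte list 2 of 5 and of the astrocyte list 3 of 4. In bulk samples, fewer cells of a type and less RNA per cell cannot be told apart. The library totals ran from 410581 to 448130 FPKM, and the number of fragments is not given, so the counting error behind a value is unknown.

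Among the proteasome genes, 1 passed the threshold, in the fit with the block alone, and that was the alternative activator Psme4, which fell. The constitutive core, the cap, the inhibitor, the assembly factors and the immunosubunits did not pass. Without the block, 0 of 48 members passed in limma, where 0% of all genes did. At an unadjusted p under 0.05 there was 1 member, Psme4, against 10.6% of all genes, and none of the other 47. With the block, 1 of 48 members passed, against 10.6% of all genes, and it was lower, against 7.59% of all genes called lower. None of the 48 was called higher, against 2.99% of all genes. At an unadjusted p under 0.05 with the block there were 7 members (28.4% of all genes), 6 of them higher (12.4% of all genes). These 6 were Psma2, Psma5, Psmb6, Psmb7, Psmf1 and Psmg4.

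The small differences mostly pointed upward. The log2 difference was above 0 in 38 of 48 members, where it was above 0 in 50.7% of all genes, and its median was 0.097 in the members and 0.00362 over all genes. In 15 members the cKO library was the higher one in all 4 pairs (16.7% of all genes), and in 1 member, Psme4, it was the lower one in all 4 (19.5% of all genes). In no member did each cKO library lie above each WT library (2.06% of all genes), and in 1, again Psme4, each lay below (2.28% of all genes). After the correction for transcript length and GC content 33 of 48 differences were above 0, with a median of 0.058 beside 0.033 over all genes, and with quantile scaling 35 were, with 0.073 beside 0.027. Scaled to equal totals, the median of the members was 0.064, beside -0.028 over all genes. With the values as deposited, the median of the members was 0.061 without WT 1 and 0.057 without WT 3. Members share libraries and move together, so these counts are not 48 separate observations. Without the block, the 95% intervals of the 47 other members all held 0, and none reached below -0.54 or above 1.16. With the block, the intervals of Psma2, Psma5, Psmb6, Psmb7, Psmf1 and Psmg4 lay above 0 before adjustment, and no interval of the 47 reached below -0.47 or above 0.72.

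**Figure D1:**
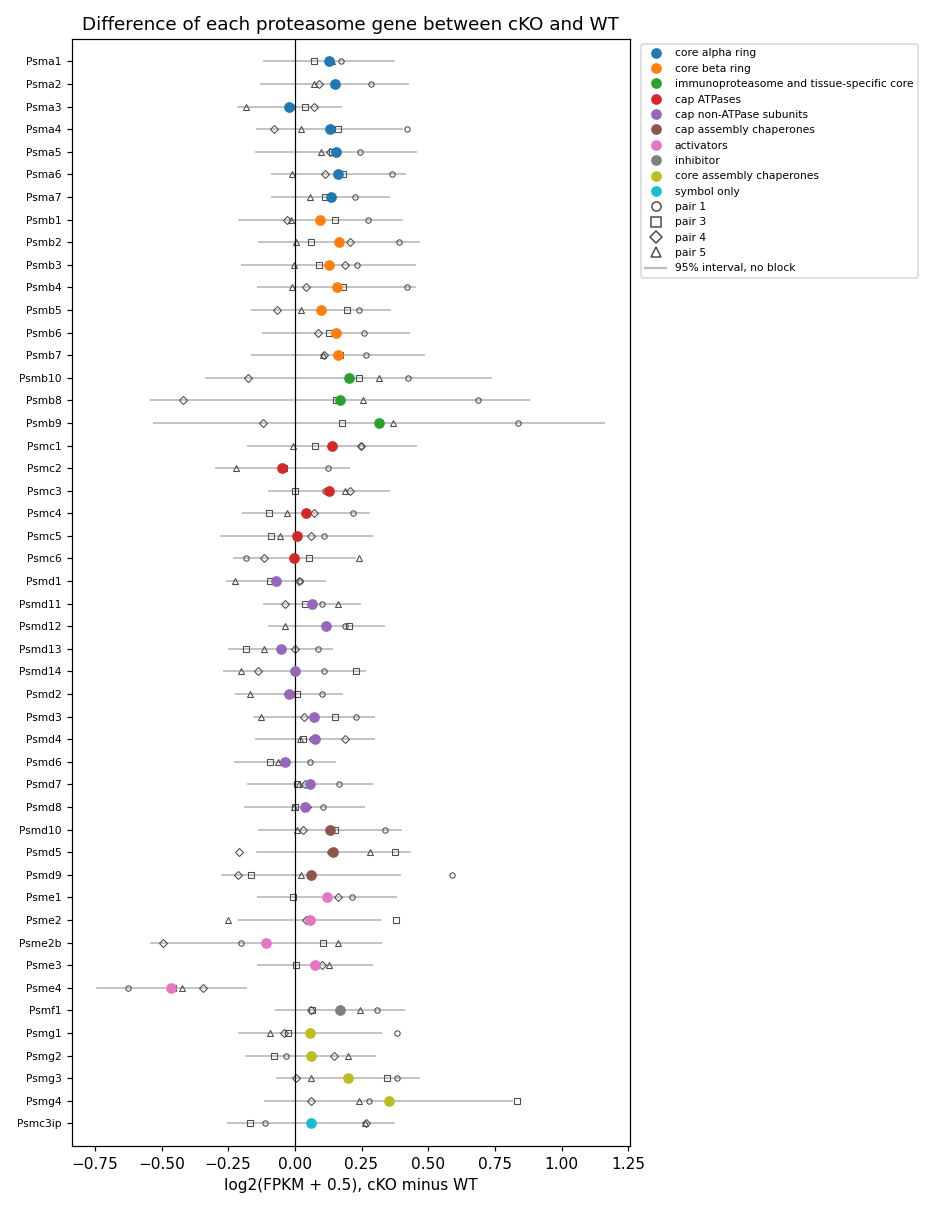
Log2 difference of each of the 48 rows between cKO and WT (horizontal axis, log2(FPKM + 0.5)), with filled points for the mean difference coloured by class, grey lines for the 95% interval without the block and open symbols for the 4 pairs. Psme4 is the row whose 4 pairs and interval all lie left of 0; the core subunits lie mostly to the right, with intervals that cross 0.

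The alpha ring was measured in full. Its 7 subunits had mean levels of 49.1 (Psma5) to 121 FPKM (Psma6), and their log2 differences ran from -0.021 (Psma3) to 0.16 (Psma6), with a median of 0.13. Of the 7, 0 passed the test in either fit. Psma6, a subunit of the gated ring, was at 100.3, 101, 126 and 128 FPKM in WT 1, 3, 4 and 5 and 129, 115, 136 and 127 in cKO 1, 3, 4 and 5. WT 1 and 3 stood below all the other libraries and the groups overlapped in the rest (0.16, adjusted p = 0.581, and 0.1897 with the block). Psma7 was at 102, 99.6, 116 and 119 FPKM in the WT libraries and 119.7, 108, 128 and 124 in the cKO libraries (0.13, adjusted p = 0.602, and 0.181 with the block), with the cKO library higher in each pair. For Psma5, the least abundant of the ring, the values were 43.9, 38.1, 53.01 and 51.1 FPKM in the WT libraries and 52.2, 42.03, 58.1 and 54.8 in the cKO libraries (0.15, adjusted p = 0.654, and 0.138 with the block). Psma1 (0.13), Psma2 (0.15) and Psma4 (0.13) were also higher on average in cKO within the spread of the libraries, and Psma3 (-0.021) was almost level.

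The beta ring carries the cutting sites in Psmb5 (cutting after hydrophobic residues), Psmb6 (after acidic residues) and Psmb7 (after basic residues), while Psmb1 to Psmb4 are structural. Its 7 genes had differences of 0.095 (Psmb1) to 0.17 (Psmb2) with a median of 0.15, all above 0, and 0 of 7 passed in either fit. Psmb5 was at 75.8, 68.1, 93.4 and 89.9 FPKM in WT 1, 3, 4 and 5 and 89.6, 78.03, 89.2 and 91.3 in cKO 1, 3, 4 and 5 (0.098, adjusted p = 0.745, and 0.404 with the block). Psmb6 had 136, 126, 167 and 157 FPKM in the WT libraries and 163, 138, 178 and 174 in the cKO libraries (0.15, adjusted p = 0.625, and 0.136 with the block). In Psmb7 the levels were 119, 108, 152 and 152 FPKM in the WT libraries and 144, 121, 164 and 163 in the cKO libraries (0.16, adjusted p = 0.661, and 0.1202 with the block). In Psmb6 and Psmb7 the cKO library was the higher of each pair, while in Psmb5 this held in 3 of 4, and in all 3 genes the groups overlapped. Psmb4, with the highest level of any member, was at 156, 156, 214 and 203 FPKM in the WT libraries and 209, 177, 221 and 202 in the cKO libraries (0.16, adjusted p = 0.644, and 0.246 with the block), and Psmb1, the lowest of the ring, at 50.7, 46.1, 64.5 and 66.6 FPKM in the WT libraries and 61.4, 51.2, 63.2 and 65.9 in the cKO libraries (0.095, adjusted p = 0.791, and 0.4198 with the block). Both had WT 1 and 3 as their lowest WT libraries. Psmb2 (0.17) and Psmb3 (0.13) did not pass.

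The subunits of the core are built into the barrel in equal numbers, and their RNA levels were not equal. Mean FPKM over the 8 libraries ranged from 49.1 in Psma5 to 192 in Psmb4, with Psma3 (53.9), Psma2 (55.2) and Psmb1 (58.7) next to the lower end and Psmb6 (155) and Psmb7 (140.4) next to the upper one. Neighbours such as Psma2, with a mean of 52.5 ± 7.78 FPKM for WT against 57.998 ± 6.05 for cKO, and Psma3, with a mean of 54.3 ± 3.66 FPKM for WT against 53.5 ± 3.04 for cKO (SD, n = 4 each), lay within each other's spread. Psmb4 exceeded Psma5 in every library.

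The 14 constitutive core genes moved together from library to library, and by more than the genotypes differed. Their mean log2 level was 6.34, 6.23, 6.61 and 6.62 in WT 1, 3, 4 and 5 and 6.61, 6.37, 6.69 and 6.65 in cKO 1, 3, 4 and 5. WT 1 and 3 and cKO 3 were low, and the other 5 lay close together. Within WT, both libraries 1 and 3 lay below both libraries 4 and 5 in 13 of the 14 genes, and within cKO library 3 was the lowest in all 14. WT 1, WT 3 and cKO 3 were also the libraries with the smallest totals, at 410581, 414612 and 414733 FPKM against 430951 to 448130 in the others. The part of the total in this pattern was not tested. With all libraries scaled to the same total the median difference of the 14 genes was 0.11, beside -0.028 over all genes. As deposited it was 0.14, beside 0.0036 over all genes. The mean differed by 0.27, 0.13, 0.081 and 0.032 in pairs 1, 3, 4 and 5, so it was higher in cKO in each pair and most so in pair 1. Without WT 3 the median difference was 0.070, and without cKO 3 it was 0.21. It was 0.084 with quantile scaling and 0.064 with a correction for transcript length and GC content, where the medians over all genes were 0.027 and 0.033.

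**Figure D2:**
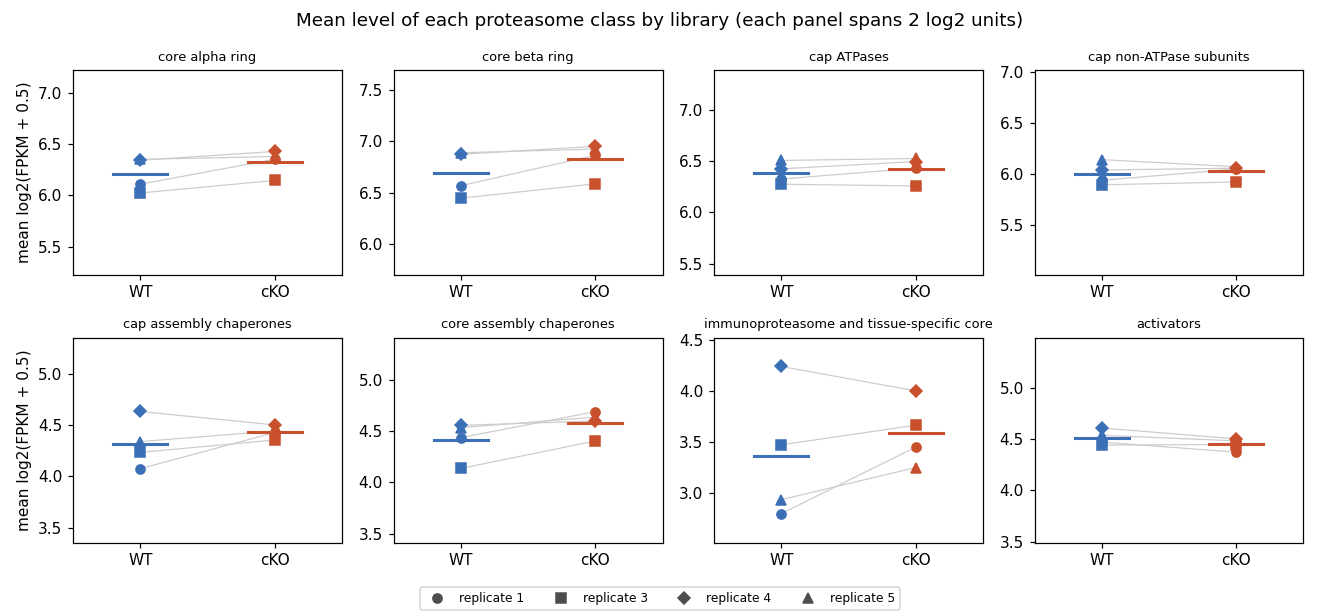
Mean log2(FPKM + 0.5) of each class in every library (vertical axis, 2 log2 units in each panel), with WT in blue, cKO in orange, symbols for the replicate number, grey lines joining a pair and bars for the group mean. The core rings are low in WT 1, WT 3 and cKO 3, the cap is nearly level, and the immunosubunits are the most spread, with replicate 4 highest in both genotypes.

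The factors that assemble the core have their own genes. Psmg1 to Psmg4 encode chaperones that dimerise to build the alpha ring, and all 4 were measured, at 17.5 to 27.7 FPKM. Of the 4, 0 passed in either fit. Psmg4 had 19.1, 10.97, 24.5 and 20.1 FPKM in WT 1, 3, 4 and 5 and 23.3, 19.9, 25.5 and 23.8 in cKO 1, 3, 4 and 5. WT 3 was far below the other 7 libraries, the groups overlapped, and the difference of 0.35 (SE 0.21) did not pass (adjusted p = 0.528, and 0.104 with the block). Without WT 3 it was 0.12. Psmg3 was at 15.7, 13.5, 16.9 and 18.95 FPKM in the WT libraries and 20.7, 17.3, 17.02 and 19.8 in the cKO libraries (0.20, adjusted p = 0.534, and 0.186 with the block), higher in cKO in each pair. The values of Psmg2 were 30.8, 25.7, 27.7 and 24.2 FPKM in the WT libraries and 30.1, 24.4, 30.7 and 27.9 in the cKO libraries (0.059, adjusted p = 0.843, and 0.639 with the block), without a common direction over the pairs, as for Psmg1 (0.055). Pomp, which is needed for the beta ring to form and was in a separate list, had 113, 124, 161 and 149 FPKM in the WT libraries and 173, 136, 176 and 153 in the cKO libraries and did not pass (0.23, adjusted p = 0.531, and 0.172 with the block).

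The median difference of the 17 cap subunits was 0.036, beside 0.14 in the core, and the gap between these classes was not tested. The base of the cap holds the 6 ATPases Psmc1 to Psmc6, which unfold the substrate. Their differences ran from -0.046 (Psmc2) to 0.14 (Psmc1) with a median of 0.024, and 0 of 6 passed in either fit. Psmc1, the most abundant, was at 95.03, 96.8, 121 and 129.9 FPKM in the WT libraries and 113, 102, 143 and 129 in the cKO libraries (0.14, adjusted p = 0.698, and 0.218 with the block). Psmc3 was at 108, 96.4, 99.2 and 109 FPKM in the WT libraries and 117, 96.4, 115 and 125 in the cKO libraries (0.13, adjusted p = 0.626, and 0.222 with the block), and in both genes the groups overlapped. Psmc6, the least abundant, was at 62.7, 61.4, 56.2 and 51.3 FPKM in the WT libraries and 55.2, 63.7, 51.8 and 60.7 in the cKO libraries (-0.0020, adjusted p = 0.994, and 0.9896 with the block), and its order of libraries was unlike that of the core, with WT 1 and 3 above WT 4 and 5 and cKO 3 highest of all. Psmc4 (0.041) and Psmc5 (0.0066) lay between.

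Of the 11 non-ATPase subunits of the cap, 0 passed in either fit, 6 had differences above 0 and 5 below, and the median was 0.036. They ran from -0.071 in Psmd1, a scaffold of the base, to 0.12 in Psmd12, a subunit of the lid. Psmd8, of the lid and the most abundant of them, was at 114, 107, 119.8 and 131 FPKM in the WT libraries and 122, 107, 124 and 131 in the cKO libraries (0.036, adjusted p = 0.8999, and 0.716 with the block). Psmd11, the least abundant and also of the lid, had 36.5, 36.98, 40.1 and 38.3 FPKM in the WT libraries and 39.2, 38.02, 39.03 and 42.9 in the cKO libraries (0.065, adjusted p = 0.755, and 0.536 with the block). Neither separated the genotypes. Psmd14, the deubiquitinase that removes the ubiquitin chain before degradation, had a mean of 47.4 ± 7.35 FPKM for WT against 46.97 ± 2.66 for cKO (SD, n = 4 each; -0.00081, adjusted p = 0.998, and 0.996 with the block), and Psmd4, a receptor for ubiquitin chains, had a mean of 80.6 ± 6.81 FPKM for WT against 84.96 ± 7.31 for cKO (0.076, adjusted p = 0.7703, and 0.445 with the block). Psmd2 (-0.021), Psmd3 (0.072), Psmd6 (-0.037), Psmd7 (0.057) and Psmd13 (-0.053) did not pass. Over the 17 ATPase and non-ATPase subunits the median was -0.011 with quantile scaling.

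Set against the core of its own library, the cap was a little lower in each cKO library than in its WT partner. The mean log2 level of the 17 cap genes minus that of the 14 core genes was -0.26, -0.20, -0.43 and -0.35 in WT 1, 3, 4 and 5 and -0.42, -0.32, -0.48 and -0.42 in cKO 1, 3, 4 and 5. The pairs differed by -0.16, -0.12, -0.045 and -0.069, while the groups overlapped, with cKO 3 above WT 4 and WT 5. This is a description of the libraries, and it was not tested.

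The cap has its own assembly chaperones, Psmd5, Psmd9 and Psmd10, of which 0 passed in either fit. Psmd5 was at 18.97, 19.97, 27.5 and 20.8 FPKM in the WT libraries and 20.8, 26.1, 23.7 and 25.4 in the cKO libraries (0.14, adjusted p = 0.662, and 0.389 with the block). Psmd10, also known as gankyrin, was at 14.7, 14.5, 19.7 and 17.03 FPKM in the WT libraries and 18.8, 16.2, 20.1 and 17.1 in the cKO libraries (0.13, adjusted p = 0.668, and 0.325 with the block), higher in cKO in each pair with overlap between the groups. For Psmd9 (0.059), 25.5% of the exonic bases overlap Gm26745 on the opposite strand, and the strand setting of the counting is not stated.

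Psme4 encodes the activator known as PA200, which opens the core without ubiquitin or ATP and is known from chromatin and histone turnover. Of the 10 members with a difference below 0, it was the only one called lower, and only with the block. Its gene (ENSMUSG00000040850) spans chr11:30771726-30880361 on the plus strand of GRCm38. Psme4 was at 17.7, 15.99, 12.7 and 13.3 FPKM in WT 1, 3, 4 and 5 and 11.3, 11.5, 9.86 and 9.797 in cKO 1, 3, 4 and 5. Each cKO library lay below each WT library, and the cKO libraries were closer together than the WT libraries. The libraries had a mean of 14.9 ± 2.34 FPKM for WT against 10.6 ± 0.908 for cKO (SD, n = 4 each), a log2 difference of -0.46 (SE 0.12, 95% interval -0.74 to -0.19), or 27.4% lower. In limma the adjusted p was 0.453 without the block and 0.0129 with it. The pairs differed by -0.62, -0.46, -0.34 and -0.42 in pairs 1, 3, 4 and 5. With the block and without pair 1 it no longer passed (adjusted p = 0.0645), and it passed without pair 3, 4 or 5 (0.0468, 0.0375 and 0.0347). Its order of libraries was again not that of the core, since WT 1 and 3 were its highest libraries and the core's lowest among WT.

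The transcript of Psme4 (6491 nt) is the longest of any member, the next being that of Psmd5 (4397 nt). The 1416 genes with a transcript at least as long as Psme4 had a median log2 difference of -0.15, against 0.02 in the shorter ones, and 21.2% of them were called lower with the block. Of those genes, 201 (14.2%) had a difference as low as that of Psme4 or lower. After each library was corrected for the length and GC content of transcripts, the difference of Psme4 was -0.37, and it passed with the block (adjusted p = 0.02601). Beside it, the list of Müller glia markers held 1 gene above 0 of 10, 2 of them (Aqp4 and Abca8a) lower with the block, while 3 of 7 bipolar cell markers, Cabp5 and Pcp2 among them, were higher with the block. The astrocyte markers Gfap (1.35, adjusted p = 0.00521 with the block), which reactive Müller glia also express, and S100b (0.44, 0.0467) and the pericyte marker Rgs5 (0.76, 0.00277) were higher with the block as well. The other measured pericyte marker, Pdgfrb, pointed the opposite way and did not pass (-0.25, adjusted p = 0.183 with the block). The remaining astrocyte marker, Aldh1l1, did not pass either (0.099, 0.552). The part of these cell types in the fall of Psme4 was not tested.

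The other activators did not pass in either fit. Psme1 and Psme2 encode the subunits of PA28, the interferon-induced ring that opens the core and favours the release of peptides for antigen presentation, and Psme3 encodes its nuclear relative. Psme1 was at 56.3, 62.1, 73.1 and 67.2 FPKM in WT 1, 3, 4 and 5 and 65.4, 61.9, 81.8 and 72.9 in cKO 1, 3, 4 and 5 (0.12, adjusted p = 0.684, and 0.246 with the block). Psme2 was at 35.6, 30.2, 41.4 and 42.5 FPKM in the WT libraries and 37.1, 39.5, 42.6 and 35.6 in the cKO libraries (0.057, adjusted p = 0.865, and 0.742 with the block), and both genes overlapped between the genotypes. Psme3 had a mean of 45.6 ± 2.997 FPKM for WT against 48.1 ± 4.66 for cKO (SD, n = 4 each; 0.074, adjusted p = 0.765, and 0.447 with the block). Psme2b, a near copy of Psme2 whose reads can be shared with it, was listed at 2.57, 3.05, 4.31 and 2.86 FPKM in the WT libraries and 2.16, 3.31, 2.91 and 3.26 in the cKO libraries (-0.11, adjusted p = 0.839, and 0.689 with the block). Psmf1, the inhibitor of the core known as PI31, was at 23.1, 24.9, 26.5 and 28.7 FPKM in the WT libraries and 28.7, 26.1, 27.6 and 34.1 in the cKO libraries, higher in cKO in each pair but with overlapping groups (0.17, adjusted p = 0.552, and 0.168 with the block). Psmc3ip, which is no subunit, was at 4.77, 5.33, 4.58 and 5.18 FPKM in the WT libraries and 4.38, 4.69, 5.61 and 6.31 in the cKO libraries (0.061, adjusted p = 0.874, and 0.777 with the block), and 21.2% of its exonic bases overlap Mlx on the opposite strand.

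**Figure D3:**
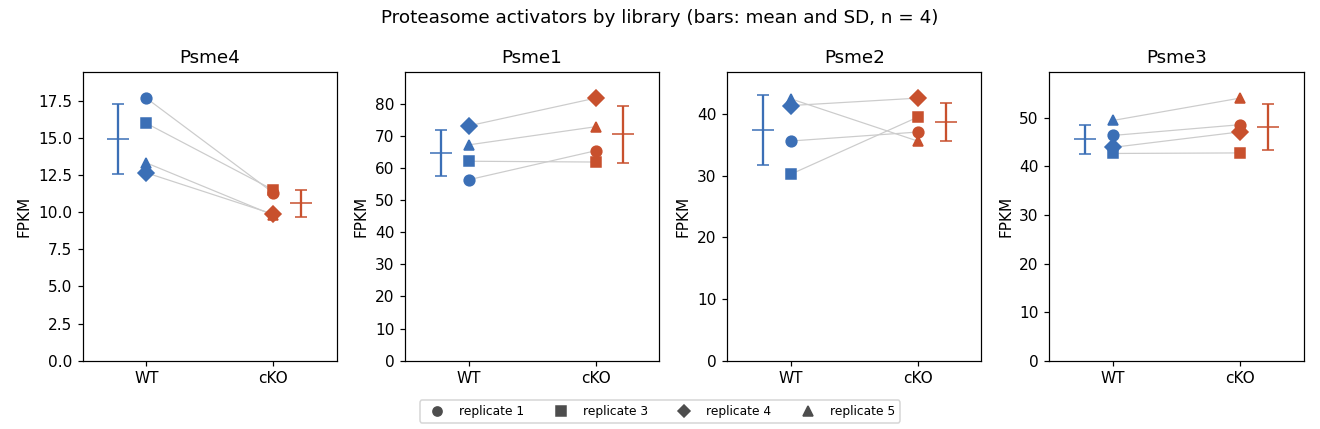
FPKM of the activator genes Psme4, Psme1, Psme2 and Psme3 in each library (vertical axes from 0), with WT in blue, cKO in orange, symbols for the replicate number, grey lines joining a pair, and the mean and SD of 4 libraries beside the points. The 4 cKO values of Psme4 all lie below the 4 WT values, while the groups of the other 3 genes overlap.

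The immunosubunits Psmb8, Psmb9 and Psmb10 replace Psmb5, Psmb6 and Psmb7. They were the members with the largest spread between libraries, and 0 of the 3 passed in either fit. Psmb8 was at 6.02, 12.7, 16.7 and 6.26 FPKM in WT 1, 3, 4 and 5 and 9.98, 14.2, 12.4 and 7.58 in cKO 1, 3, 4 and 5. Psmb9 had 1.71, 2.87, 6.45 and 1.68 FPKM in the WT libraries and 3.44, 3.31, 5.89 and 2.31 in the cKO libraries, and Psmb10 had 23.1, 30.4, 55.7 and 30.1 FPKM in the WT libraries and 31.2, 36.1, 49.3 and 37.7 in the cKO libraries. In each gene WT 1 and 5 were the lowest WT libraries, WT 4 was the highest, and the groups overlapped throughout. The log2 differences were 0.17 (95% interval -0.54 to 0.88; adjusted p = 0.847, and 0.524 with the block), 0.32 (-0.53 to 1.16; 0.749, and 0.274 with the block) and 0.20 (-0.33 to 0.74; 0.745, and 0.227 with the block). Single libraries moved them widely. That of Psmb8 was -0.037 without WT 1 and 0.43 without WT 4, that of Psmb9 0.096 without cKO 4 and 0.68 without WT 4, and that of Psmb10 0.035 without WT 1 and 0.45 without WT 4. With the block the intervals were narrower, at -0.20 to 0.54 for Psmb8, -0.085 to 0.72 for Psmb9 and -0.028 to 0.43 for Psmb10, and each held 0.

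Relative to the subunit it replaces, each immunosubunit was low. Psmb8/Psmb5 was 0.0794, 0.186, 0.179 and 0.0696 in WT 1, 3, 4 and 5 and 0.111, 0.182, 0.139 and 0.08304 in cKO 1, 3, 4 and 5. Psmb9/Psmb6 was 0.0125, 0.0227, 0.0385 and 0.0107 in the WT libraries and 0.0211, 0.023996, 0.0332 and 0.0133 in the cKO libraries. Psmb10/Psmb7 was 0.194, 0.282, 0.366 and 0.199 and 0.217, 0.297, 0.3005 and 0.231. The mean ratios of WT and cKO differed by less than the SD of either group, at 0.129 ± 0.0625 and 0.129 ± 0.04197 for Psmb8/Psmb5 (SD, n = 4 each), 0.0211 ± 0.0128 and 0.0229 ± 0.00821 for Psmb9/Psmb6 and 0.2602 ± 0.0813 and 0.261 ± 0.0434 for Psmb10/Psmb7. Of the exonic bases, 14.7% in Psmb8 overlap Gm20496 and 11.8% in Psmb7 overlap Nek6, both on the opposite strand. In Psmb5, 12.1% overlap Mir686 on the same strand. The part of these overlaps in the ratios was not tested. The cKO library had the higher ratio in 2 of 4 pairs for Psmb8/Psmb5 and in 3 of 4, all but pair 4, for each of the others. In both genotypes and for all 3 ratios, libraries 3 and 4 lay above libraries 1 and 5, and the highest ratio was 3.605 times the lowest for Psmb9/Psmb6, 2.67 times for Psmb8/Psmb5 and 1.89 times for Psmb10/Psmb7. This order was noticed in the values and was not tested.

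Genes of antigen presentation, which interferon is known to induce with the immunosubunits, were compared with this order. The 9 measured of 10 listed genes summed to 129.9, 217, 250.3 and 149.8 FPKM in WT 1, 3, 4 and 5 and 199, 234, 244 and 164 in cKO 1, 3, 4 and 5, so in the sum, of which B2m is the largest term, libraries 3 and 4 again lay above 1 and 5 in both genotypes. Gene by gene this held in 9 of 9 within WT and in 6 of 9 within cKO, the exceptions being Tap1, Tapbp and Erap1, and it was not tested. Of the 9, 0 passed in either fit. B2m, the light chain of MHC class I, was at 35.4, 65.5, 81.8 and 44.2 FPKM in the WT libraries and 72.4, 75.04, 88.4 and 51.2 in the cKO libraries (0.38, adjusted p = 0.565, and 0.125 with the block). The heavy chain genes H2-K1 (a mean of 28.1 ± 9.07 FPKM for WT against 34.2 ± 8.17 for cKO; 0.31, adjusted p = 0.625, and 0.122 with the block) and H2-D1 (a mean of 18.3 ± 6.69 FPKM for WT against 21.3 ± 3.94 for cKO; 0.26, adjusted p = 0.662, and 0.267 with the block) did not pass, and reads of such related genes can be shared. Tap1 overlaps 5.79% of the exonic bases of Psmb9 on the opposite strand. Of the microglia list 11 of 12 genes were not in the table, and the part of microglia in this order was not tested.

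**Figure D4:**
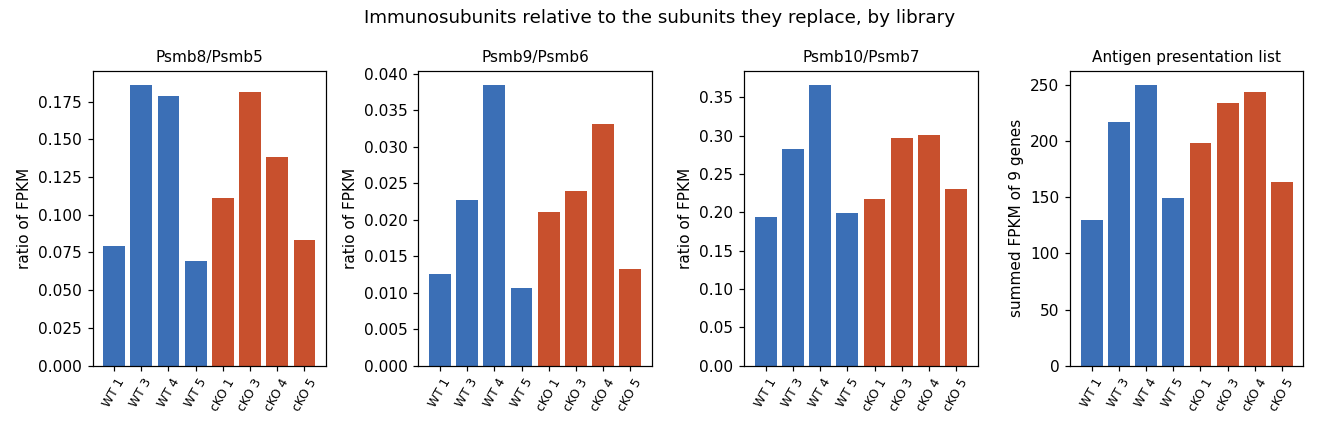
Ratio of the FPKM of each immunosubunit to that of the subunit it replaces, and summed FPKM of the 9 antigen presentation genes (vertical axes from 0), in the 4 WT (blue) and 4 cKO (orange) libraries. Libraries 3 and 4 of each genotype stand above libraries 1 and 5 in all 4 panels.

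The promoters of these genes were searched for cores of interferon motifs as well. GAAANNGAA, the core of the interferon-stimulated response element, was in 7 of the 44 windows (15.9%). It was in 8.56% of all windows and 6.62% of those of measured genes. The 7 were those of Psmb3, Psmb4, Psmc2, Psmd4, Psmd9, Psme1 and Psmg4. TTCNNNGAA, the core of the gamma-activated site, was in 3 (6.82%), those of Psmb8, Psmd2 and Psmg1. It was in 8.30% of all windows and 6.50% of those of measured genes. Both strands were searched, and Psmd9 held an antioxidant and an interferon core that do not overlap. Both the stretch of Psmb8 (chr17:34198088-34198116, plus strand) and that of Psme1 (chr14:55578494-55578522, plus strand) lie inside their GENCODE gene models, which begin at 34197721 and 55578123. The match of Psmb8 begins 97 bases before the RefSeq start, and that of Psme1 at transcribed base 11. These matches are shown since both genes belong to the interferon-induced forms. The other genes of these forms, Psmb9, Psmb10 and Psme2, also had windows, and none of them held either interferon core.
Psmb8: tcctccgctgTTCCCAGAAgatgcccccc
Psme1: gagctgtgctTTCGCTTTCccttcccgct

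Other genes of the pathway were taken from 5 lists, and none of them passed without the block in limma. At an unadjusted p under 0.05 without the block, 2 of the 41 measured did, against 10.6% of all genes (Akirin2, Ecpas). Among further subunits and assembly factors, 5 of 6 were measured, and with the block Sem1 and Akirin2 rose, Ecpas fell and 2 did not pass. These 3 were the calls with the block among the 41 genes, against 10.6% of all genes. Akirin2, which brings proteasomes into the nucleus, was at 56.2, 47.4, 50.2 and 54.9 FPKM in the WT libraries and 66.9, 54.9, 63.3 and 69.1 in the cKO libraries (0.28, adjusted p = 0.453, and 0.0254 with the block). Sem1, a small subunit of the lid, was at 29.9, 23.4, 40.04 and 37.04 FPKM in the WT libraries and 42.9, 29.95, 46.7 and 41.4 in the cKO libraries (0.31, adjusted p = 0.5303, and 0.0407 with the block). Ecpas, an adaptor that tethers and remodels proteasomes, was at 28.2, 30.2, 21.8 and 20.1 FPKM in the WT libraries and 17.9, 23.5, 17.9 and 15.1 in the cKO libraries (-0.42, adjusted p = 0.465, and 0.0185 with the block). In Ecpas, as in Psme4, WT 1 and 3 were the highest WT libraries. Adrm1, a ubiquitin receptor of the cap, was almost level (-0.0066, adjusted p = 0.984, and 0.963 with the block).

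None of the 9 genes of the NRF1 axis passed with the block. Nfe2l1 itself, which encodes the main activator of the subunit genes, was at 47.2, 44.7, 47.1 and 45.97 FPKM in the WT libraries and 50.003, 54.2, 50.8 and 47.6 in the cKO libraries (0.13, adjusted p = 0.537, and 0.233 with the block). Syvn1 (-0.092, adjusted p = 0.654, and 0.416 with the block) and Sel1l (-0.10, adjusted p = 0.708, and 0.376 with the block), of the ubiquitin ligase complex in the ER membrane, differed by less. In Nfe2l1 each cKO library lay above each WT library (2.06% of all genes), and in Syvn1 each lay below (2.28% of all genes). Of the 12 genes of ubiquitin handling at the proteasome, 11 had differences above 0 and 0 passed with the block. Among them were Zfand2a (0.26, adjusted p = 0.489, and 0.163 with the block) and Ubqln2, a shuttle for ubiquitinated proteins (0.10, adjusted p = 0.658, and 0.385 with the block). Of the 6 genes for ubiquitin and its activating enzymes, 4 were above 0 and 0 passed with the block. Among them were Rps27a, which encodes ubiquitin fused to a ribosomal protein (0.18, adjusted p = 0.666, and 0.154 with the block), and the stress-induced Ubb (0.12, adjusted p = 0.718, and 0.337 with the block).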

How the data were processed

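The authors deposited 1 table of FPKM with 1 column for each of 8 libraries. Per the submitters' processing notes, STAR and edgeR and the builds GRCm38 and mm10 were used. Versions, the counting tool, annotation, strand setting and gene filter are not given in the sources used here. The lowest mean FPKM of a gene was 2. Fragment numbers per library are unknown, so no counting interval was computed. Per the labels' protocols, libraries came from poly(A)-selected RNA with a directional kit.

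Values were taken as log2(FPKM + 0.5) and tested with the package limma 3.58.1 under R 4.3.3 (eBayes with a trend, two-sided, Benjamini-Hochberg over 12339 genes, threshold 0.05). After each group's mean was removed, libraries of equal number correlated at 0.261 to 0.591 across genes and those of unequal number at -0.479 to 0.211, so the numbers were taken to pair the samples, from the data and not from a statement in the labels. The block left 3 residual degrees of freedom in place of 6. On simulated data for this comparison with 12339 genes, differences of 1 log2 unit were called in 64% of changed genes without the block and 77% with it, and differences of 0.5 in 28% and 31%. The simulation drew each gene independently, with equal pair and residual variance in every gene, while genes here move together. These rates may therefore not hold for the data, where the fits called 0 genes without the block and 1305 with it.

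Positions and overlaps came from GENCODE M21 (GRCm38), in which 12332 of 12339 IDs were found, and transcript length and GC content from its longest coding transcript. Sequences came from the RefSeq promoter table (GRCm38.p6). The members and lists were chosen with earlier results of these data known. Every member could be named. Values in every library were set to be given for members past the threshold in either fit, the 8 with the smallest p, the immunosubunits with their counterparts, Psme1, Psme2 and the highest and lowest of each class, and of each other list the 3 genes with the smallest p, some of which are not reported here. Alternatives were other pseudocounts (0.1 and 1), a minimum mean of 5 FPKM, median-of-ratios, equal-sum and quantile scaling, the block, eBayes without a trend and each library or pair left out. A spline correction (4 degrees of freedom) for the length and GC content of transcripts, and the block with it or with quantile scaling, were chosen after seeing the data.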

Additional observations from a re-analysis of the deposited data

Results flagged for a closer look

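In 4 members, 1 library of the cKO group stood apart from the other 3 by more than the 95% limit of Dixon's test for groups of 4, and in each it was cKO 3, on the low side. Psmc2, an ATPase of the cap, was at 51.0 FPKM in cKO 3, with the other cKO libraries at 59.6 to 60.6. Psmc4, another ATPase, was at 70.6, with the others at 86.3 to 88.8. Psmd4, a ubiquitin receptor, was at 74.1, with the others at 87.5 to 89.5, and Psmb5, a cutting subunit of the core, was at 78.03, with the others at 89.2 to 91.3. Chance gives about 1 in 20 of the 96 groups tested, or 4.8, and members of 1 library are not independent. The total FPKM of cKO 3 was the lowest of the cKO libraries (414733), and its part in these values was not tested.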

How the results depend on the processing

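The number of genes called over the whole table was 0 without the block in each alternative, and 0 when any 1 library was left out. It was 1305 with the replicate block, 1300 with the block and median-of-ratios scaling, 945 with the block and the length and GC correction, and 1058 with the block and quantile scaling. With the block and without pair 1, 3, 4 or 5 it was 402, 606, 524 and 821. In the same fits the number of members called was 1 (Psme4), apart from 0 with the block without pair 1. The block changed no other member's call. Psme4 differed by -0.46 with the block, and without 1 library by -0.53 to -0.38. Nfe2l2 passed with the block at -0.50, with the block and median-of-ratios scaling (-0.50), the length and GC correction (-0.51) or quantile scaling (-0.46), and without pair 3 (-0.60), but not without pair 1, 4 or 5.

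The median of the activators and Psme2 were both at -0.051 with the block without pair 3. The median was -0.019 with the length and GC correction with or without the block, and -0.040 to 0.11 without 1 library. The other class medians moved by less than the spread between libraries. Of all 48 members, 38 were above 0 with the block, 34 with the block without pair 1 and 33 with the length and GC correction. Only members with values given for every library were followed singly, so others that changed sign are not listed. Those followed that changed sign did so around 0, and none of them was called. With the block, Psmb8 was at -0.0028 without pair 1, Psmc3ip at -0.0067 without pair 4 and -0.0053 without pair 5, Psmc6 at 0.059 without pair 1 and 0.036 without pair 4, and Psme2b at 0.021 without pair 4. With the length and GC correction, with or without the block, Psmc3ip was at -0.011, Psmc6 at 0.0071 and Psmg2 at -0.023, and with quantile scaling, likewise, Psmd8 at -0.016. Without 1 library, the difference ran in Psmb8 from -0.037 to 0.43, Psmc3ip from -0.025 to 0.14, Psmc6 from -0.058 to 0.049, Psmd8 from -0.0082 to 0.092, Psme2 from -0.040 to 0.12 and Psme2b from -0.19 to 0.026. Depth could not be assessed, since the files give no fragment numbers.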
